A study of Mus musculus with 441 samples.

Results

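Immediate early genes are switched on within minutes of a signal, without new protein synthesis. The 7 studied here were taken by name: *Fos*, *Fosb*, *Jun*, *Junb*, *Egr1*, *Ier2* and *Atf3*. All 7 were found among the 21001 gene names of the bulk RNA table, the 22392 of the stem cell table, the 18848 of the neural precursor table and the 23142 windows of the ChIP table, once names damaged into calendar dates were dropped. RNA was measured in single mouse embryonic stem cells (mESCs) and in bulk, and histone marks, RNA polymerase II (RNAP2) and input DNA were measured by ChIP-seq.

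The stem cells were of 3 kinds. Cells of the v6.5 line were kept in serum+LIF (90 and 93 single cells on a pair of plates, 2 bulk libraries) or in 2i+LIF (94 cells on 1 plate, 1 bulk library). A Dgcr8 knockout (Dgcr8 -/-) line was grown in serum+LIF (84 cells on 1 plate, 2 bulk libraries). LIF is the cytokine that keeps mESCs self-renewing, 2i is a pair of inhibitors of the kinases MEK and GSK3, and Dgcr8 is the partner of Drosha that most microRNAs need for their processing. The neural precursor cells (NPCs, 54 cells on 1 plate) were made from v6.5 cells in culture, selected in ITSFn medium and expanded in N2 with bFGF on laminin. Per the labels, the single cells were trypsinised before capture on a microfluidic chip. The labels give no separate clones or cultures for the replicates, so the p-values reflect only how these samples differ among themselves, which can be technical. The knockout and 2i groups were both compared with the same serum samples.

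Immediate early genes are textbook targets of the MEK-ERK cascade, which acts on their promoters through serum response factor with its ETS partners and through CREB. Fos, Fosb, Jun and Junb are subunits of the dimeric transcription factor AP-1, in which a FOS protein needs a JUN partner. Atf3 is a related bZIP factor known for its induction by stress, Egr1 is a zinc finger transcription factor, and Ier2 is a small nuclear protein. In mESCs, ERK signalling is known for moving cells out of naive pluripotency, and the MEK inhibitor of 2i acts on that cascade.

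The promoter letters of 4 members are shown because their RNA or marks carry the results below. *Fos* and *Jun* varied together most closely among NPCs, *Fosb* is the near relative of *Fos*, and the window of *Atf3* had the largest ratio among the active marks. The RefSeq table held an entry for 5 of the 7 members, with none for *Egr1* or *Ier2*. The entry of *Junb* is not printed, though its marks are also reported below. Each line gives the 130 bases before the annotated start, 5′ to 3′ on the gene's strand, from RefSeq on build GRCm38.p6, a build other than the mm9 of the deposited files. Capitals mark the core of a CREB site (TGACG), a variant of the AP-1 site (TGACATCA, a motif added after the *Jun* stretch was seen) and the TATA box (TATAAA).

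Fos (chr12:85473760-85473889, plus strand): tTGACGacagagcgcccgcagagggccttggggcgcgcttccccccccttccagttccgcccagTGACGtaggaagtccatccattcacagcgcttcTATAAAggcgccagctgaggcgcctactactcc
Fosb (chr7:19310046-19310175, minus strand): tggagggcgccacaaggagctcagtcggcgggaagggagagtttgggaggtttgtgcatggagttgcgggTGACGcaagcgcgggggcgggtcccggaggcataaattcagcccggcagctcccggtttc
Jun (chr4:95052223-95052352, minus strand): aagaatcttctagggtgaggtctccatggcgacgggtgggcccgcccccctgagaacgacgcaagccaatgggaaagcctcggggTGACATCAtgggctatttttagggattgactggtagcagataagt
Atf3 (chr1:191183334-191183463, minus strand): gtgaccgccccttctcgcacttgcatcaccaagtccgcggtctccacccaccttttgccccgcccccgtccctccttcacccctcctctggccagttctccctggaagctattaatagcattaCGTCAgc

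The *Fos* stretch held TGACG at 2 places, 129 and 66 bases before the start, and a TATAAA from 33 to 28 bases before it. *Fosb* held 1 TGACG, 60 bases before its start, and *Atf3* held 1 on the opposite strand, from 7 to 3 bases before its start. *Jun* held no TGACG and 1 TGACATCA, from 45 to 38 bases before its start. The unprinted *Junb* stretch held 1 TGACG, from 106 to 102 bases before its start. Both strands of 32454 distinct promoter stretches of the same length were searched. TGACG was in 12.3% of them, TGACATCA in 2.13% and TATAAA in 6.81%. The full palindrome TGACGTCA (1.31% of stretches), the AP-1 site TGANTCA (3.68%) and the CArG box of serum response factor (0.813%) were found in none of the 4. These are matches of letters in a short window and say nothing of which factor was bound.

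Levels are given as TPM (transcript abundance, a share of RNA scaled for transcript length, obtained by reversing the deposited natural log). The median cell held 7353 to 9974 genes at a TPM of at least 1. TPM keeps no read depth, so depth is unknown. The fifth percentile of a cell's values above 0 had a median of 0.502 to 0.52 TPM on the serum and NPC plates and of 0.985 to 0.996 TPM on the 2i and knockout plates, so low values were rarer on the latter. The median of a cell's values above 0 was typically 6.94 and 5.57 TPM on the serum plates. It was 13.7 TPM in 2i and 16.8 TPM in the knockout, and levels in carrying cells were not corrected for this. The labelled knockout held lower but not absent *Dgcr8* RNA: the bulk libraries read 10.6 and 10.3 TPM under serum, 4.66 under 2i, and 4.03 and 2.20 in knockout cultures. The files do not say which part of the gene was deleted, so this does not check the label. All 7 pluripotency markers were found in at least 50% of the cells of each mESC plate, while fibroblast and primitive endoderm markers were listed at 0 on the serum plates and all but 1 of each list on the 2i and knockout plates. The trophoblast gene *Elf5* was found in 89.3% to 97.8% of the cells of each mESC plate, with *Cdx2* and *Hand1* at 0. The remaining gene of that list, *Gata3*, was above 0 in some serum and 2i cells, under 50% on each plate. It was listed at 0 in the knockout. Among the 54 NPCs, 7 carried *Pou5f1*, a defining stem cell gene, at 10.9 TPM or more, against at most 6.70 TPM in the other 47. Results on NPCs are given with and without these 7 cells, a split chosen after seeing the data. All 7 fibroblast markers were above 0 in some NPC, 2 of them in at least 50% of cells. Their summed TPM had a median of 51.9 and a maximum of 2294. Primitive endoderm markers summed to a median of 0.69 and a maximum of 1195 TPM. Of 7 neural precursor markers listed for NPCs, 4 were found in at least 50% of cells. No NPC was left out on these markers.

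The stem cell table carries a filter that shapes every low share. No gene was above 0 in 1 to 9 of the 183 serum cells, in 1 to 4 of the 94 2i cells or in 1 to 4 of the 84 knockout cells. A gene seen in fewer cells may therefore be listed at 0 throughout that culture, so no fold is printed against such a group. The NPC table has no such gap.

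In the Dgcr8 knockout, *Fos* and *Egr1* RNA was far higher than in serum in bulk and in single cells. Bulk *Fos* was at 1.95 and 1.84 TPM in the serum libraries, 1.81 TPM under 2i, and 35.7 and 32.4 TPM in the knockout. The knockout libraries stood apart from the other 3, which lay close together. The change was 3.60 on the log2(TPM + 1) scale (SE 0.24, limma, adjusted p = 1.25e-07). *Egr1* was at 0.282 and 0.278 TPM under serum, 0 under 2i, and 9.20 and 6.54 TPM in the knockout, a change of 2.78 (SE 0.26, limma, adjusted p = 1.62e-06). *Ier2* was at 1.04 and 0.706 TPM under serum, 1.48 under 2i, and 3.47 and 6.44 in the knockout (1.63, SE 0.29, limma, adjusted p = 3.03e-04). *Junb* was at 1.12 and 0 TPM under serum, 0.112 under 2i, and 1.70 and 2.40 in the knockout (1.06, SE 0.32, limma, adjusted p = 0.00972). Both knockout libraries lay above both serum libraries for each of these 4 genes, as they did for 71.2% of all genes tested, and the serum libraries of *Junb* differed widely from each other.

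**Figure D1:**
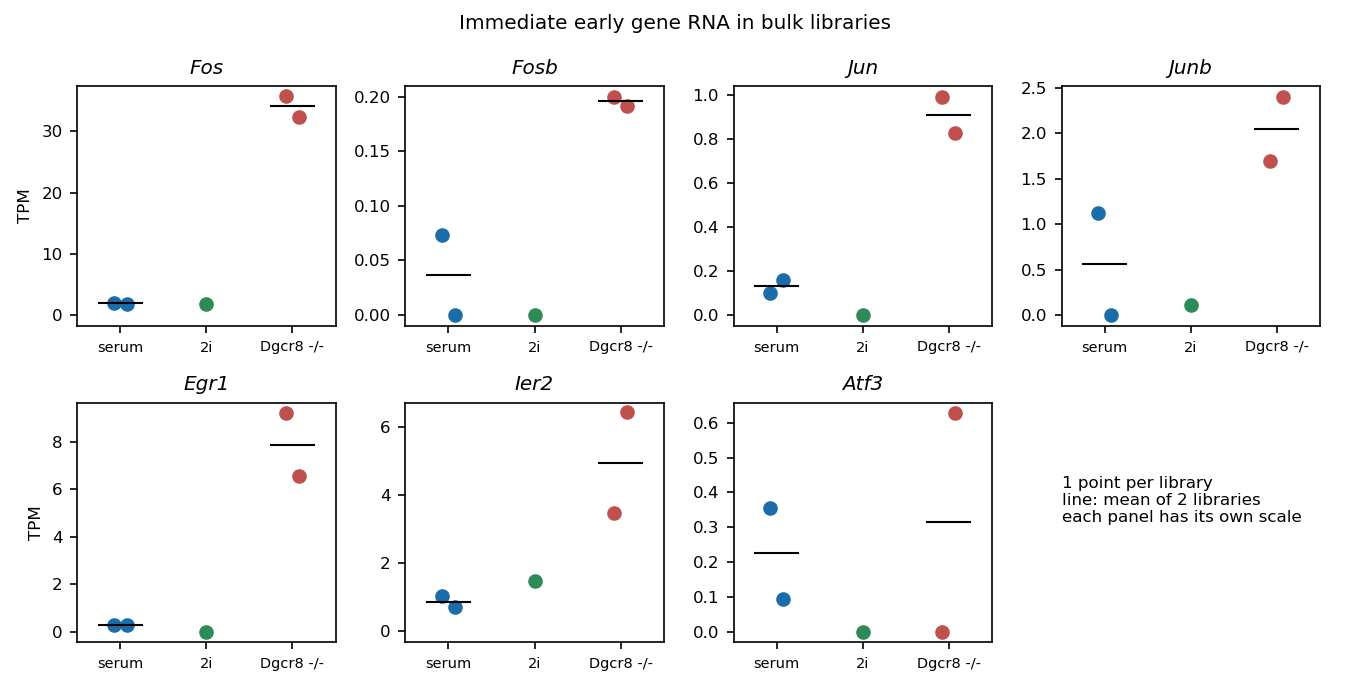
TPM of each member in the 5 bulk libraries (serum 2, 2i 1, Dgcr8 -/- 2), 1 point per library and a line at the mean of a pair, with a separate vertical scale in each panel. Fos lies at 35.7 and 32.4 TPM in the knockout and between 1.81 and 1.95 TPM in the other 3 libraries.

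These 4 members rose among the 4 that passed the filter of a mean of 1 TPM. Of all 10081 genes tested, 62.5% rose in the same comparison, and *Egr1* and *Junb* passed the filter only through the knockout libraries, so the count supports nothing about the members. The median gene itself was 0.92 higher on the log2 scale, and relative to it *Fos* was 2.68, *Egr1* 1.86, *Ier2* 0.71 and *Junb* 0.14 higher. With each library centred on its median gene, *Fos* (2.48, limma, adjusted p = 4.08e-05) and *Egr1* (1.66, adjusted p = 7.99e-04) kept their call, *Ier2* (0.51, adjusted p = 0.169) did not pass, and *Junb* turned to -0.06 (adjusted p = 0.875). That scaling moved the split of all calls from 6303 rises and 1183 falls to 2196 and 3681. *Junb* also lost its call without serum replicate 2 (adjusted p = 0.166) and without knockout replicate 2 (adjusted p = 0.105), without a filter on low genes (adjusted p = 0.137) and with quantile normalisation (adjusted p = 0.616), where *Ier2* lost its call too (adjusted p = 0.102).

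The 3 members below the filter were near the bottom of the bulk scale. *Jun* was at 0.102 and 0.161 TPM under serum, 0 under 2i, and 0.991 and 0.829 in the knockout, with no overlap between the groups. *Fosb* was at 0.0735 and 0 TPM under serum, 0 under 2i, and 0.20 and 0.192 in the knockout. *Atf3* was at 0.356 and 0.0942 TPM under serum, 0 under 2i, and 0 and 0.627 in the knockout, so its groups overlapped. In bulk, fewer cells with a gene and less RNA per cell cannot be told apart.

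The few neural precursor markers that could be tested were higher both in the knockout and in 2i. Of 8 such genes, 2 passed the bulk filter and both rose there: *Sox2*, also a stem cell gene (4.22, limma, adjusted p = 1.71e-08), and *Vim* (3.41, adjusted p = 2.85e-07). Across plates 3 of 3 tested rose, *Sox2*, *Vim* and *Msi1*. The summed TPM of the list averaged 14.3 and 16.4 over serum cells, 93.3 over 2i cells and 159.8 over knockout cells, while *Fabp7* and *Hes5* were at 0 on all 4 plates. Of all genes tested, 62.5% rose in the knockout in bulk and 50% across plates, so these counts support nothing about the list. In bulk, the median log2 change of the tested markers was 3.82 in the knockout and 1.93 in 2i. Across plates it was 3.04 and 2.22. The part of these markers in the rise of *Fos* and *Egr1* was not tested.

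Single cells showed how many cells carried each gene. A cell was counted as carrying a gene at a TPM of at least 1, with exact (Clopper-Pearson) 95% binomial intervals that cover counting error only. *Fos* was found in 14 of 90 and 43 of 93 serum cells, 15.6% and 46.2%, in 21 of 94 2i cells (22.3%), in 66 of 84 knockout cells (78.6%) and in all 54 NPCs. The 2 serum plates did not overlap in their intervals (8.77 to 24.7% and 35.8 to 56.9%), and the 2i interval (14.4 to 32.1%) overlapped the first and lay below the second. The plates differed in weak cells: at a TPM of at least 10, each serum plate held 3 cells with *Fos*, against 10 of the 2i cells and 53 of the knockout cells. The median among carrying cells was 3.62 and 2.54 TPM on the paired serum plates, 7.43 under 2i and 32.9 in the knockout.

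*Egr1* was carried by 18.9% and 24.7% of serum cells and by 88.1% of knockout cells, and it was listed at 0 in all 94 2i cells. Its median in carrying cells was 2.48 and 2.09 TPM on the serum plates and 20.7 TPM in the knockout. No serum cell reached 10 TPM of *Egr1*, while 55 of the 84 knockout cells did. *Jun* followed the same order, with 14.4% and 8.60% of serum cells, none listed under 2i and 73.8% of knockout cells. Its median in carrying cells was 2.01 and 1.44 TPM under serum and 7.53 TPM in the knockout. The share and the level per carrying cell were thus both higher in the knockout for *Fos*, *Egr1* and *Jun*. Values above 0 of all genes were also higher there, with a median of 16.8 TPM against 6.94 and 5.57 TPM under serum.

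*Ier2* was found in nearly every cell of the mESC plates. It was detected in 98.9% and 96.8% of serum cells, 96.8% of 2i cells, 98.8% of knockout cells and 83.3% of NPCs, with medians over all cells of 13.1, 8.75, 17.3, 24.9 and 11.4 TPM. *Junb* was found in 60.0% and 51.6% of serum cells, 53.6% of knockout cells and 30.9% of 2i cells (interval 21.7 to 41.2%). Among carrying cells, those in 2i had a median *Junb* level of 7.23 TPM against 3.74 and 3.97 TPM on the serum plates. Values above 0 of all genes differed likewise, with a median of 13.7 TPM in 2i against 6.94 and 5.57 TPM, so this is not particular to *Junb*. The plate means of *Junb* were 3.40 and 2.59 TPM under serum, 2.5 under 2i and 5.31 in the knockout. In both single-cell tables *Junb* has values identical to those listed under the name AK006748, so its reads cannot be told apart from those of that name.

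*Fosb* and *Atf3* were listed at 0 on both serum plates. *Fosb* was carried by 8 of 94 2i cells (8.51%) and 27 of 84 knockout cells (32.1%), and *Atf3* by 7 of 94 2i cells (7.45%) and 13 of 84 knockout cells (15.5%). A gene above 0 in up to 9 of the 183 serum cells could also be listed at 0. *Atf3* was concentrated in few cells: in the knockout the top 8 cells held 94.9% of its summed TPM, and the highest cell held 59.1 TPM.

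**Figure D2:**
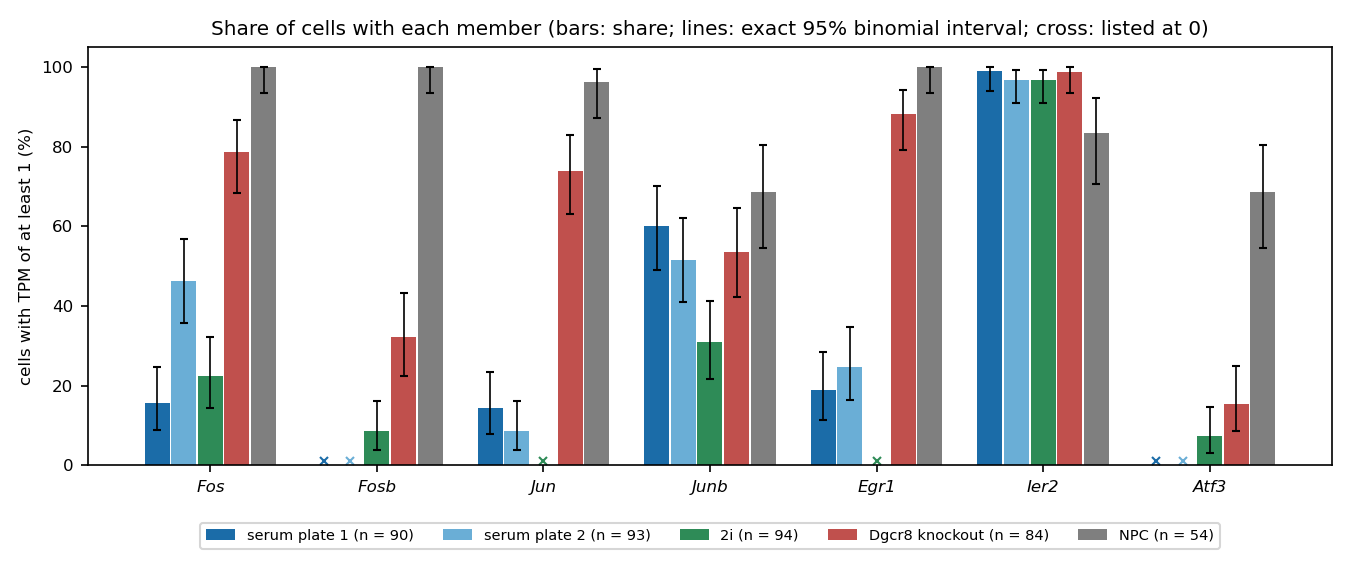
Share of cells with a TPM of at least 1 for each member on the 5 plates, with exact 95% binomial intervals, and crosses where a gene is listed at 0. The knockout bar stands above both serum bars and the 2i bar for Fos, Jun, Egr1, Fosb and Atf3, while Ier2 is above 80% on every plate.

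Cells are not replicates, so the test across plates used the mean TPM of each plate, with 1 residual degree of freedom from the pair of serum plates. *Fos* averages were 1.31 and 1.78 TPM under serum, 2.28 under 2i and 34 in the knockout. *Egr1* averages were 0.666 and 0.705 TPM under serum and 20.1 in the knockout, and *Jun* averages were 0.435 and 0.269 TPM under serum and 7.71 in the knockout. *Fos* (log2 change 3.79, SE 0.26, limma, adjusted p = 0.0192), *Egr1* (3.64, SE 0.06, adjusted p = 0.00212) and *Jun* (2.69, SE 0.10, adjusted p = 0.00878) rose in the knockout. *Ier2* (17.7 and 10.6 against 32.4 TPM, log2 change 1.18, adjusted p = 0.132) and *Junb* (0.67, adjusted p = 0.117) did not pass. Of all 12397 genes tested 50% rose, and the median gene was 1.38 higher, so *Fos* was 2.41, *Egr1* 2.26 and *Jun* 1.31 higher relative to it and *Ier2* -0.20 and *Junb* -0.71. With plates centred on their median gene, *Junb* fell (-0.88, limma, adjusted p = 0.0127) and the 3 rises were kept, while the split of all calls moved from 6200 rises and 368 falls to 2176 and 3502. *Egr1* and *Jun* passed the filter only through the knockout plate. With 1 knockout plate from a separate line, plate, line and genotype cannot be told apart here. With 1 plate in 2i, neither can plate and medium. In bulk, line and genotype cannot be told apart.

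**Figure D3:**
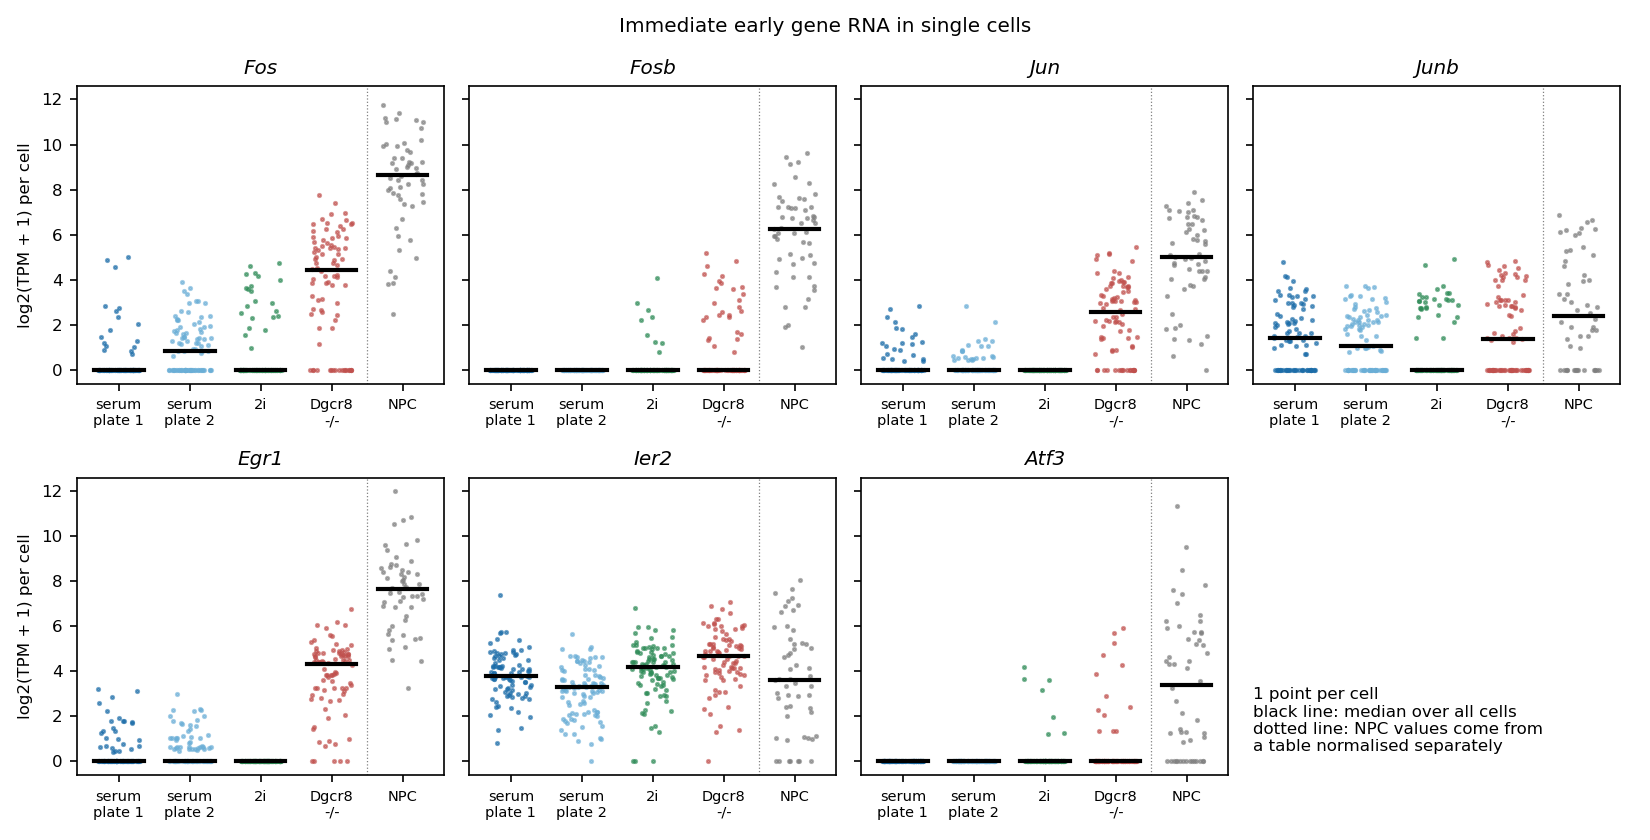
log2(TPM + 1) of each member in every cell of the 5 plates, 1 point per cell and a black line at the median over all cells of the plate; the NPC values come from a table normalised separately. Knockout medians of Fos and Egr1 lie above 4, whereas serum and 2i medians are below 1.

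Under 2i, *Egr1* was the member that passed the test across plates, and none did in bulk. Among bulk libraries, none of the 4 members tested passed (limma, 0 also at an unadjusted p under 0.05), where 32.1% of all 10081 genes changed in either direction. The largest difference was that of *Ier2* (log2 change 0.41, SE 0.36, limma, adjusted p = 0.412). With a pseudocount of 0.1, *Egr1* fell (limma, adjusted p = 0.0334). Across plates *Egr1*, listed at 0 in 2i, passed as lower (limma, adjusted p = 0.0276), 1 of 5 members tested, where 1.82% of the 12397 genes fell. Its call rests on that listing and was lost with a pseudocount of 5 (adjusted p = 0.0502). *Jun*, also listed at 0 in 2i, did not pass (limma, adjusted p = 0.0713). The log2 difference of *Fos* was 0.37 (adjusted p = 0.317), that of *Junb* -0.18 (adjusted p = 0.544) and that of *Ier2* 0.55 (limma, adjusted p = 0.37). With 1 residual degree of freedom, a p above the threshold does not show that these levels were alike. The median gene was 1.24 higher under 2i, and with plates centred on it all 5 members fell: *Fos* by 0.95 and *Ier2* by 0.77 on the log2 scale, with the sign turned, and *Junb* by 1.50. The split of all calls then moved from 4831 rises and 226 falls to 1767 and 2562. Whether *Fos*, *Junb* and *Ier2* were lower or level in 2i therefore depends on the scaling.

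Bulk and single cells, which come from tables normalised separately, gave different levels for some members. In the knockout, *Fos* was at 35.7 and 32.4 TPM in bulk and at a mean of 34 TPM over cells. *Jun* was at 0.991 and 0.829 TPM in bulk and at 7.71 over cells, and *Fosb* at 0.20 and 0.192 in bulk and at 3.04 over cells. In serum, *Ier2* was at 1.04 and 0.706 TPM in bulk and at 17.7 and 10.6 over cells. These values stand side by side as descriptions, and the gaps were not tested.

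In NPCs, 4 of the members were found in over 90% of cells. Median TPM over the 54 cells was 401 for *Fos*, 203 for *Egr1*, 75.9 for *Fosb*, 30.9 for *Jun*, 11.4 for *Ier2*, 9.73 for *Atf3* and 4.22 for *Junb*. *Fos* ran from 178.8 to 845 TPM between the quartiles and to 3496 TPM at most, and *Egr1* from 93.9 to 375 and to 4085. The share of cells was 100% for *Fos*, *Fosb* and *Egr1*, 96.3% for *Jun*, and 68.5% each for *Junb* and *Atf3*. *Ier2* and *Junb*, the members of most serum cells, were thus not the leading members in NPCs. *Atf3* was again uneven, with 77.7% of its summed TPM in 5 cells. Without the 7 cells with *Pou5f1*, the medians were 481 TPM for *Fos* and 233 for *Egr1*, and the 7 cells themselves had medians of 190.0 and 49.2 TPM. The NPC table was normalised separately, so no test was made against the mESC plates, and plate and cell type cannot be told apart with 1 NPC plate.

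The number of members a cell could show differed between cultures. *Fosb* and *Atf3* are listed at 0 in serum, and *Jun* and *Egr1* in 2i, so no cell there could carry more than 5, and the counts that follow are a description bounded by those listings. The median cell carried 2 of the 7 members on both serum plates and in 2i, 4 in the knockout and 6 in NPCs. At least 4 members were found in 8 of 90 and 6 of 93 serum cells, 2 of 94 2i cells, 66 of 84 knockout cells and 53 of 54 NPCs. All 7 were found in 3 knockout cells and 25 NPCs. The number of members per cell had a Spearman correlation with the number of genes detected of 0.24 and 0.27 over serum cells, 0.20 in 2i, 0.10 in the knockout and 0.17 in NPCs.

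Among cells of 1 plate, some pairs of members varied together in NPCs, and most pairs in mESCs showed little joint variation. The correlations below are Spearman values over the cells of a plate, which share a chip, and are descriptions without a test. The median over pairs was 0.11 and 0.03 on the serum plates (10 pairs with a value each), -0.00396 in 2i (10 pairs), 0.12 in the knockout (21 pairs) and 0.20 in NPCs (21 pairs). In 2i, 5 of the 10 pairs were above 0. Against all other genes, the median correlation of *Ier2* on serum plate 1 was 0.09 and that of *Junb* 0.03, a background near the serum medians. It was not computed for the other members on that plate. The highest serum pair was *Jun* with *Egr1* on plate 1, at 0.33. They were found together in 6 of 90 cells, where the product of their shares gives 2.46. On plate 2 this pair was at -0.02, with 0 cells together. In the knockout the members' medians against all other genes lay between -0.005 and 0.01, and in NPCs between -0.02 and 0.06. In the knockout, *Fos* and *Egr1* had the highest pair at 0.26, and were found together in 58 of 84 cells, where the product of their shares gives 58.1. In NPCs, *Fos* and *Jun* stood at 0.65, *Fos* and *Ier2* at 0.53, *Fos* and *Fosb* at 0.45, *Junb* and *Egr1* at 0.44 and *Fosb* and *Jun* at 0.43. Of 10147 genes found in at least 20% of NPCs, *Jun* was the one most like *Fos*, and *Fos* the one most like *Jun*. *Junb* and *Atf3* stayed apart from *Fos*, at 0.17 and 0.12. Without the 7 cells with *Pou5f1*, the *Fos* and *Jun* pair was at 0.72, *Junb* and *Egr1* at 0.45 and the median pair at 0.16.

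**Figure D4:**
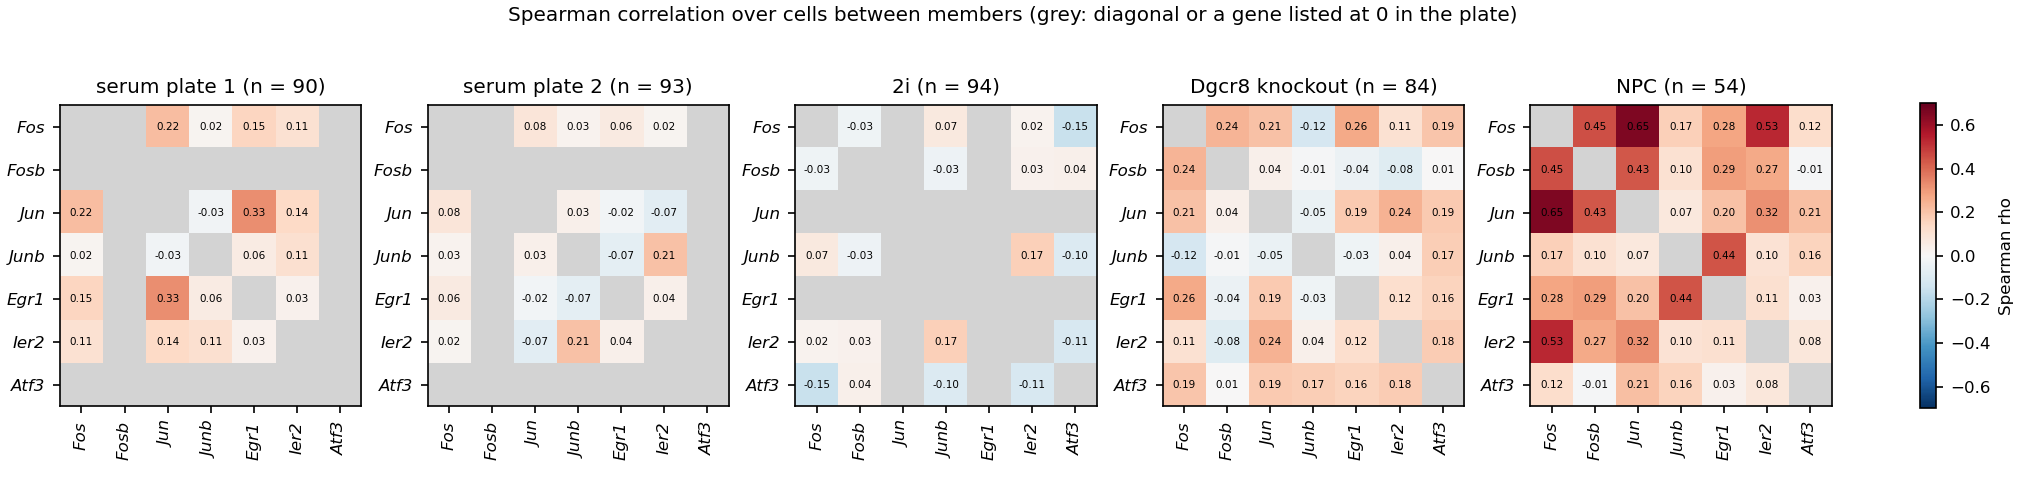
Spearman correlation over cells for every pair of members on each plate, blue for negative and red for positive values, grey on the diagonal and where a gene is listed at 0. The strongest cells lie in the NPC panel, at 0.65 for Fos with Jun and 0.53 for Fos with Ier2, and no mESC panel exceeds 0.33.

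*Junb* and *Ier2* were the only members in at least 20% of the cells of all 4 mESC plates. By the mean of the 4 within-plate Spearman correlations, the genes most like *Ier2* among 8574 were *Cox4nb* (0.39), *Tomm20* (0.38, a subunit of the mitochondrial import receptor) and *Uqcrfs1* (0.35, a subunit of respiratory complex III). Those most like *Junb* were *Pigp* (0.25), *Csnk1a1* (0.22) and *Snrnp200* (0.21), weak values in sparse data.

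The windows of *Fos* and *Egr1*, whose RNA rose in the knockout, stayed within 2-fold of serum there for H3K4me3, H3K27ac and RNAP2. The deposited ChIP table holds read counts in 1 window of 1000 bases per gene on build mm9; its place relative to the gene is not stated. The windows are chr12:86814350-86815350 for *Fos*, chr7:19894894-19895894 for *Fosb*, chr4:94718413-94719413 for *Jun*, chr8:87502147-87503147 for *Junb*, chr8:87186251-87187251 for *Ier2* and chr1:193006712-193007712 for *Atf3*, and that of *Egr1* is on chromosome 18. There was 1 library per mark and culture, so ratios have no replicate check. They are log2 ratios relative to the median window, computed with a pseudocount of 1 for windows with at least 20 counts in 1 of the 2 libraries, and the intervals cover counting error only. With input counts subtracted, 20 ratios had a value, and 16 of these moved by more than their counting interval. The input was scaled to each mark's total counts over the windows before subtraction, so reads of enriched windows raised the amount subtracted.

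At *Fos*, H3K4me3 (a mark of active and poised promoters) had 601 counts in serum, 261 under 2i and 281 in the knockout, ratios to serum of -0.52 and 0.29 after scaling. H3K27ac (a mark of active promoters and enhancers) had 233, 196 and 255 counts there, and RNAP2 92, 42 and 111. The knockout ratio was 0.30 for H3K27ac (interval 0.04 to 0.56) and 0.13 for RNAP2 (-0.28 to 0.54). *Egr1* had H3K4me3 counts of 1234, 789 and 347, H3K27ac counts of 269, 161 and 204, and RNAP2 counts of 96, 23 and 96. Its knockout ratios were -0.44 for H3K4me3, -0.23 for H3K27ac and -0.14 for RNAP2 (-0.57 to 0.28), so none was higher than in serum. *Jun* had RNAP2 counts of 176, 58 and 257 and H3K27ac counts of 273, 185 and 393, with knockout ratios of 0.40 (0.12 to 0.69) and 0.69 (0.47 to 0.92). With input counts subtracted, the H3K27ac ratio of *Jun* turned to -0.06.

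No member passed 2-fold in the knockout for H3K4me3, where 13% of windows were higher and 0.918% lower by as much, or for RNAP2, where 13.1% did. The window of *Ier2*, the member of nearly every cell, was the richest of the 7 in H3K4me3 (2799, 1785 and 1280 counts) and RNAP2 (705, 405 and 983 counts), above 99.4% of windows for RNAP2 in serum.

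The window of *Atf3* had the largest ratio of the 7 among the active marks. It had the most H3K27me3 (the Polycomb mark of silenced genes) of the 7 members in serum, with 180 counts (exact Poisson interval 154.7 to 208), above 97.7% of all windows, against 46 in 2i (33.7 to 61.4) and 86 in the knockout (68.8 to 106). The ratio to serum was -1.33 in 2i (-1.85 to -0.88) and -0.66 in the knockout (-1.05 to -0.29). H3K27ac at *Atf3* went the other way, with 62 counts in serum, 217 under 2i and 120 in the knockout, ratios of 1.57 (1.17 to 2.02) and 1.11 (0.67 to 1.59). RNAP2 had 61, 81 and 66 counts, with ratios of 1.17 in 2i (0.68 to 1.68) and -0.03 in the knockout. These stand beside *Atf3* RNA that was listed at 0 in serum cells and found in 7.45% of 2i and 15.5% of knockout cells, while the bulk values of *Atf3* showed no such order. Past 2-fold were 4.54% of windows for higher H3K27ac in 2i, 3.23% in the knockout, 8.99% for lower H3K27me3 under 2i and 8.11% for higher RNAP2 in 2i.

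In 2i, the other members had lower active marks or ratios near that of the median window. *Junb* had 1043 H3K4me3 counts in serum and 224 in 2i, a ratio of -1.53 (-1.75 to -1.33) and the only member past 2-fold, where 8.10% of windows were lower by as much. Its H3K27me3 counts were 22 under serum, 41 under 2i and 35 in the knockout. The ratios were 1.49 in 2i (0.73 to 2.33) and 1.05 in the knockout (0.26 to 1.91). Scaled to total counts over the windows, the *Junb* counts of this mark were 0.25, 0.95 and 0.63 of the input. The input at *Junb* was itself above 99.5%, 95.8% and 98.3% of windows. That scaling includes enriched windows and can lower such values. H3K27me3 above input, and so a gain of it at *Junb*, is therefore not shown. *Egr1*, listed at 0 in 2i cells, had an RNAP2 ratio of -1.25 in 2i (-2.02 to -0.63), where 7.26% of windows were lower by 2-fold, an H3K27ac ratio of -0.96 and an H3K4me3 ratio of 0.04, which turned to -1.06 with input subtracted. Its H3K27me3 counts were 31 in serum and 45 in 2i, a ratio of 1.14 (0.46 to 1.86); 12% of windows were higher by 2-fold under 2i and 9.78% in the knockout. *Jun* had ratios of -0.86 for H3K4me3, -0.78 for H3K27ac and -0.82 for RNAP2. *Fosb* passed 2-fold for H3K27ac (56 against 31 counts, ratio -1.06), where 10.4% of windows were lower by as much. *Ier2* had ratios of 0.03 for H3K4me3, -0.05 for H3K27ac and -0.03 for RNAP2.

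**Figure D5:**
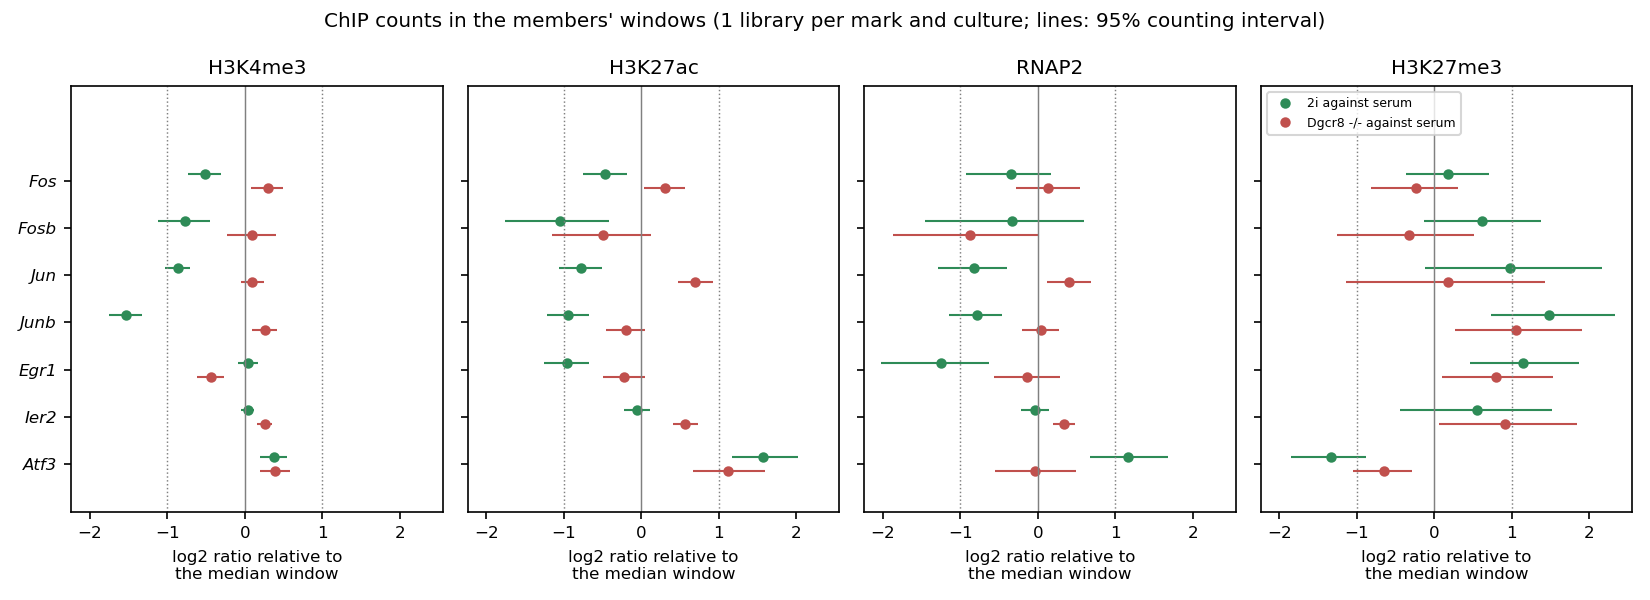
log2 ratio of counts to serum in each member's window, relative to the median window, for H3K4me3, H3K27ac, RNAP2 and H3K27me3 under 2i and in the Dgcr8 knockout, with 95% counting intervals and dotted lines at 2-fold. Atf3 lies at 1.57 for H3K27ac and -1.33 for H3K27me3 under 2i, and the knockout points of Fos and Egr1 lie between -0.44 and 0.79.

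H3K36me3 and H3K9me3 were sparse at these windows, with 5 to 56 counts for H3K36me3 and 10 to 33 for H3K9me3. In 2i, *Egr1* had 8 and 21 H3K36me3 counts (ratio 1.14, 0.01 to 2.62) and *Jun* 10 and 27 H3K9me3 counts (ratio 1.16, 0.16 to 2.46), where 7.49% and 7.94% of windows were higher by 2-fold. In the knockout, no member passed 2-fold for either mark, where 13.4% and 17.3% of windows did.

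Other genes of the pathway gave the setting. Of the other 30 immediate early genes, 13 passed the bulk filter. In the knockout 7 of the 13 rose, 1 fell and 5 did not pass, where 62.5% of all genes rose and 11.7% fell. Their median was -0.07 relative to the median gene, and the leading rises were *Klf10* (2.20, limma, adjusted p = 6.39e-07) and *Gadd45b* (1.87, adjusted p = 3.26e-05). *Myc*, the growth-promoting transcription factor, was the 1 that fell: it was at 9.40 and 8.81 TPM under serum, 0 under 2i, and 0.251 and 0.754 in the knockout (-2.77, limma, adjusted p = 2.15e-06), opposite to *Fos* and *Egr1*. In the 1 bulk 2i library, 4 of the 13 fell and none rose, where 11.8% of all genes fell and 20.4% rose. They were led by *Myc*, listed at 0 there (limma, adjusted p = 1.01e-05), and *Klf6* (-2.32, adjusted p = 8.06e-05). Across plates, 5 of 16 tested rose in 2i, 1 fell and 10 did not pass. Of all 12397 genes, 4831 rose there and 226 fell. The list's median was -0.38 relative to the median gene, against -0.61 in bulk. *Myc* averaged 13.8 and 11.7 TPM over serum cells and was listed at 0 in 2i cells. *Klf6* averaged 9.35 and 7.08 TPM over serum cells and 7.04 over 2i cells. Its bulk fall was thus not seen in these unscaled plate means. The median gene was 1.24 higher on the log2 scale in 2i across plates, so relative to it *Klf6* was lower.

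Of 12 ERK phosphatases and feedback genes, 6 were tested. In 2i 3 fell, against the same 11.8% of all genes, led by *Dusp6*, an ERK phosphatase (log2 change -2.91, limma, adjusted p = 1.65e-05), and *Spry4*, listed at 0 in 2i (adjusted p = 0.00166). In the knockout 2 rose (*Spred2*, 1.10, and *Spry2*, 1.03) and 2 fell (*Etv4*, -0.94, and *Dusp6*, -0.76), where 11.7% of all genes fell. Of 25 upstream kinases and factors, 20 were tested: 12 rose in the knockout, among them *Map2k1*, the kinase MEK1 (2.16), and 2 in 2i, *Rps6ka1* (1.50) and *Rps6ka3* (0.92), and none fell. Among 12 AP-1 partners, the 4 tested all rose in the knockout, led by *Atf7* (2.48) and *Atf2* (1.72), and *Atf4* (0.94) rose in 2i. Relative to the median gene, the knockout medians of these 3 lists were -0.84, -0.17 and 0.70. Of all genes tested, 62.5% rose in the knockout and 20.4% in 2i, so the counts of rises support nothing about these lists.

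Lists tied to stress moved in both directions. In bulk, 62.5% of all genes rose and 11.7% fell in the knockout, and 20.4% rose and 11.8% fell in 2i. Of 10 heat shock genes tested, 5 rose and 4 fell in the knockout, led by *Hspb8* (2.18) and *Hspb1* (1.95) upwards and by *Hspe1* (-3.69) and *Hspd1* (-1.65) downwards. In 2i 2 rose (*Hspb8*, 1.95, and *Hsp90aa1*, 0.69) and 4 fell, led by *Hspd1* (-1.44) and *Dnaja1* (-0.94). Of 9 integrated stress response genes tested, 8 rose in the knockout, led by *Herpud1* (2.26) and *Ddit3* (2.05), where 62.5% of all genes rose. Relative to the median gene, the knockout median was 0.10 for this list and -0.50 for the heat shock genes. In 2i 6 rose, led by *Asns*, the asparagine synthetase (3.72, from 285 and 255 to 3569 TPM), and *Herpud1* (1.31), and 1 fell, *Hspa5* (-0.59). Over single cells, the summed TPM of the 12 heat shock genes averaged 8460 and 9241 in serum, 10974 in 2i, 9011 in the knockout and 7051 in NPCs. That sum is carried by the constitutive *Hspa8*, *Hsp90aa1* and *Hsp90ab1* (3441, 1664 and 2043 TPM on serum plate 1). The inducible *Hspa1a* was found in 7.14% of knockout cells and 5.56% of NPCs, and *Hspa1b* in 25.9% of NPCs; both were listed at 0 in serum and 2i, and *Hspa1b* in the knockout too. The summed TPM of the integrated stress response genes averaged 197 and 182 in serum, 1443 in 2i, 417 in knockout cells and 1060 in NPCs. The part of stress in the members' levels was not tested. The summed TPM of the other immediate early genes correlated with that of the members at 0.40 and 0.31 among serum cells, 0.05 in 2i, 0.21 in the knockout and 0.42 in NPCs.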

How the data were processed

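Single-cell, bulk RNA-seq and ChIP-seq tables were used as deposited. Per the submitters' processing notes, the tools were Bowtie and RSEM and the build was mm9; versions are not given in the notes. RNA values were deposited as the natural log of TPM + 1, and TPM was recovered from them. The authors' ChIP table holds raw read counts per window. Cells were grouped by culture, genotype and plate from the labels, and no cell was removed. Names damaged into calendar dates were dropped (51 in the mESC table, 25 in the NPC table and 25 in the ChIP table).

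The members and gene lists were chosen with earlier results of these data known. Bulk libraries (5) and plate means (4) were each fitted by limma 3.58.1 (R 4.3.3, trended variance). The scale was log2(TPM + 1), genes needed an average TPM of 1 or more, and calls used a Benjamini-Hochberg adjusted p under 0.05. Residual degrees of freedom were 2 and 1, and a lone library or plate borrows its spread from the pairs. A fold on this scale understates the change of low genes. The fits were tested on simulated data, where the plate fit missed nearly all of the changes put in, so a gene that did not pass across plates is not shown to be unchanged. Named genes are the 7 members, the 2 called genes of each list with the largest bulk change in each direction, and the 3 genes most like each member in at least 20% of cells of every mESC plate. One gene that this rule names is not reported here. Correlations and shares used Python 3.11.15 with scipy 1.17.1. ChIP libraries summed to 332811 to 15293599 counts over the windows. Other pseudocounts, filters, scalings, thresholds and left-out samples were tried.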

Additional observations from a re-analysis of the deposited data

How the results depend on the processing

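The members called changed with the processing as follows. In bulk against serum, the 2i comparison went from 0 to 1 member with a pseudocount of 0.1, and its calls over all genes from 3239 to 1514 without a filter. The knockout comparison went from 4 members to 2 when centred on the median gene and to 2 with quantile normalisation. Across plates, the 2i comparison went from 1 member to 2 with a pseudocount of 0.1, 0 with a pseudocount of 5, 3 without a filter, 2 with the mean of log values (7988 genes in all, from 5057) and 5 when centred, and the knockout comparison from 3 members to 5 without a filter and to 4 (3 higher, 1 lower) when centred. The members gained across plates without a filter were *Fosb* and *Atf3*, both listed at 0 on both serum plates. That listing leaves no spread between the serum plates, so it fixed these calls and they support nothing. Under 2i without a filter, *Fosb* and *Atf3* rose and *Egr1* fell. Centring turned the sign of *Junb* in bulk knockout (-0.063) and plate knockout (-0.88), and of *Fos* (-0.95) and *Ier2* (-0.77) in plate 2i. With each of the serum and knockout bulk libraries left out in turn (the lone 2i library cannot be), 2i kept 0 members and 1847 to 2707 of all genes (both lowest counts without a knockout library, 1847 and 1856), and the knockout 3 to 4 members and 5825 to 7349 genes. The replicate block gave 4 members and 7690 genes in the knockout, close to the 7486 without it, and changed no member's call. The deviations of same-numbered libraries had a correlation of -0.03 over genes. The labels do not say that the numbers mark a shared batch, and this value cannot settle it.

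With input subtracted, 20 ChIP ratios had a value and 16 of them moved by more than their counting interval; 7 of those 16 changed sign, all of them ratios under 2-fold, *Jun* H3K27ac and *Egr1* H3K4me3 among them. A further 54 had no value because a count fell to 0. Most ratios with a value did not hold their size under this subtraction. Its input was scaled to each mark's total counts, enriched windows included. It can therefore remove signal, and it does not settle which size is right. Of the 148 recomputed with another scaling or pseudocount, 1 moved. Of 77 shares of cells recomputed, 31 moved outside their interval, 26 of them at a TPM of at least 10. Without the NPCs with *Pou5f1*, an alternative chosen after seeing the data, all 7 shares stayed within their interval. Few counts limit the ChIP windows of H3K36me3 and H3K9me3, and TPM gives no RNA depth.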
